A study of Homo sapiens with 28 samples.

Results

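Juxtaposition of MYC to the enhancers of another gene is a recurrent event in multiple myeloma, a cancer of antibody-secreting plasma cells. The partner gene is usually one that plasma cells keep active, and its enhancers then act on MYC in place of MYC's own. Chromatin accessibility was examined at 5 such partner genes, TXNDC5, BMP6, FAM46C, FOXO3 and IGJ. TXNDC5 encodes a protein disulfide isomerase of the endoplasmic reticulum that helps secreted proteins fold. BMP6, its neighbor on chromosome 6, encodes a secreted ligand of the bone morphogenetic protein family. FAM46C encodes a non-canonical poly(A) polymerase that is often inactivated in myeloma. FOXO3 encodes a forkhead transcription factor that is kept out of the nucleus by growth factor signaling. IGJ encodes the joining chain that links immunoglobulin units into polymeric IgM and IgA.

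The members were all regions of the count table whose nearest annotated transcription start, as assigned by the authors, belonged to 1 of the 5 genes. There were 74 such regions among 154985. Of these, 11 lay within 1000 bp of that start (called promoter regions here) and 63 lay further away (distal regions). Distances are to the nearest annotated start, so within a gene they can refer to different starts. TXNDC5 had 26 regions (5 promoter), FOXO3 20 (3 promoter), BMP6 15 (1 promoter), IGJ 8 (2 promoter) and FAM46C 5 (0 promoter). The assay was ATAC-seq, in which the Tn5 transposase inserts adapters into accessible DNA. The libraries were 22 from untreated human myeloma cell lines, each line name assayed once, and 6 from Karpas620, KMS27, L363, MM1S, OPM2 and RPMI8226 on day 3 of treatment with 10 µM lenalidomide, a drug that redirects the cereblon ubiquitin ligase to the transcription factors IKZF1 and IKZF3. The other 16 lines were H1112, KMS11, KMS12BM, KMS12PE, KMS18, KMS20, KMS21BM, KMS26, KMS28, KMS34, LP1, OCIMY5, PCM6, PE1, U266 and XG-6. All lines were grown in the same serum-containing medium, and no untreated library was described as given a vehicle. The labels gave no translocations, and none was called here, so no line was grouped by a MYC partner. With 1 library per line and condition, the spread between lines includes the spread between libraries.

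The libraries held 1599857 to 5564534 counts in regions when untreated (median 2239819) and 2168680 to 4248017 when treated (median 2655490). Values are counts scaled to the library's total in regions (CPM), so that 1 count was worth 0.180 to 0.625 CPM in the untreated libraries. The identity of the lines was examined at promoters of cell type markers. The 6 plasma cell markers summed to 147 to 379 CPM per line (median 256), and T cell markers to 0.459 to 7.63 CPM. Myeloid markers summed to 0 to 16.8 CPM, erythroid markers to 1.89 to 56.8, epithelial markers to 1.25 to 83.6 and fibroblast markers to 6.04 to 83.6. The sums ran over unlike numbers of promoter regions, 11 for plasma cell but 1 each for myeloid and fibroblast markers. The fibroblast region was called in 21 of 22 lines (median 14.3 CPM per kb, beside 31.7 for plasma cell markers), so that list was not closed. Erythroid promoters had a call in 14 lines and epithelial promoters in 13, so these lists were not closed in every line either. T cell and myeloid promoters had a call in 2 lines each. H1112 and PCM6 resembled the other untreated libraries least, with median correlations of 0.478 and 0.503 across regions. PE1 and KMS34 were as alike as 2 libraries of the same line (r = 0.921, where untreated and treated libraries of a line had 0.909 to 0.949, the next pair of untreated lines 0.749 and the median pair 0.560). Their counts differed by more than sampling noise (chi-square of 2.16 per degree of freedom, beside 1.81 to 2.72 between libraries of the same line), and the labels do not relate them. KMS12BM and KMS12PE, derived from the same patient, had r = 0.701. The 22 lines may thus hold fewer independent cell populations than names, so the comparisons across lines were repeated without PE1 and KMS12PE, and calls that changed are given. Counts do not tell apart more copies of a locus from more accessibility per copy. The level of the surrounding regions is therefore given beside the extremes.

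To show the DNA that the results turned on, 200 bases from the middle of 7 regions were read from GRCh37, plus strand, 5' to 3'. Capitals mark matches on either strand to CCAAT, to TGANTCA (the AP-1 site, bound by FOS, JUN and BATF family factors) or to the interferon-stimulated response element (bound by interferon regulatory factors, among them IRF4 of plasma cells). None of the 7 stretches held an exon. The first 4 regions were the main distal elements of TXNDC5, BMP6, FOXO3 and IGJ, each accessible in most lines.

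TXNDC5, chr6:7917265-7917464: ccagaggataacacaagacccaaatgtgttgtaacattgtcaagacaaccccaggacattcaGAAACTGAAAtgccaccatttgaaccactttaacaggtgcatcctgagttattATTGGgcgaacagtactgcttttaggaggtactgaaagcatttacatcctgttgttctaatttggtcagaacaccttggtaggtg

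BMP6, chr6:7728584-7728783: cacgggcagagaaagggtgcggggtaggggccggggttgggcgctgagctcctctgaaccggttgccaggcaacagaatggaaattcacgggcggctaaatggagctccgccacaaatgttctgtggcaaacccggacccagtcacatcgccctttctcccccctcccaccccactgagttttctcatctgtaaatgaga

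FOXO3, chr6:108994567-108994766: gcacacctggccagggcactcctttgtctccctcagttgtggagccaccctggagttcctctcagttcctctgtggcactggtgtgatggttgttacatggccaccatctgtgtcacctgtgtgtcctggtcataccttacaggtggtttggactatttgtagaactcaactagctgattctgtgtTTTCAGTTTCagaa

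IGJ, chr4:71544119-71544318: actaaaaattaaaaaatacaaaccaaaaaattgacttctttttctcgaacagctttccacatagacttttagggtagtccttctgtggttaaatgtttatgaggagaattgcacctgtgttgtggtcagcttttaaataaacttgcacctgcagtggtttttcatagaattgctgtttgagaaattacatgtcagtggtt

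The remaining 3 stretches were chosen for their pattern. The first was high in PCM6 and RPMI8226 only and lay in an intron of BMP6, although assigned to TXNDC5. The second was high in KMS11 and OPM2, and the third in PCM6.

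TXNDC5, assigned, chr6:7848548-7848747: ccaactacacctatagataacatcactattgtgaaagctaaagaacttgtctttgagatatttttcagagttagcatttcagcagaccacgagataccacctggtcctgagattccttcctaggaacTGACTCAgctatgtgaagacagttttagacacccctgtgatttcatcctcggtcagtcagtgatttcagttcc

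BMP6, intronic, chr6:7758794-7758993: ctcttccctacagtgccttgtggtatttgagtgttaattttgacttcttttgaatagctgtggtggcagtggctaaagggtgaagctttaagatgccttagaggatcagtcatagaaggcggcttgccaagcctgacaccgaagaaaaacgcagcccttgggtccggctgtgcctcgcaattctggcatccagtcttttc

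FAM46C, chr1:118152493-118152692: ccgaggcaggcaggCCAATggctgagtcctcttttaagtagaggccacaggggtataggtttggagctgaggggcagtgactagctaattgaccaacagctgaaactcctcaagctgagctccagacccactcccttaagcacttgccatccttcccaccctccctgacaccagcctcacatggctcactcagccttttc

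The main TXNDC5 stretch held the interferon-stimulated response element and CCAAT, once each, and that of FOXO3 the interferon-stimulated response element once. The main BMP6 and IGJ stretches held none of the 3. They differed in base composition, with 59.0% G+C and 10 CpG in the BMP6 stretch and 34.0% G+C in the IGJ stretch. TGANTCA was present once in the PCM6 and RPMI8226 stretch, and CCAAT once in the FAM46C stretch.

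Which partner genes were accessible in most lines was first asked of the peaks called in each library. None of the 74 member regions was called in all 22 untreated lines, a property of 6173 (3.98%) of all regions. A call in 1 line only was made for 27 members (36.5%, beside 37.1% of all regions), and 9 members (12.2%, beside 8.06%) were called in no untreated line. The 8 members called in 11 or more lines (10.8%, beside 14.8%) were 3 TXNDC5 regions, 2 each of BMP6 and FOXO3, and 1 of IGJ. No FAM46C region was among them. Between 4 (PE1) and 23 (H1112) members were called per untreated line, with a median of 13. This number moved with the depth of the library (Spearman's rho 0.77 with the total count over 22 lines, as a description), so levels rather than calls are used below. Member regions had a median mean level of 4.73 CPM, beside 2.36 CPM for all regions. The plot of levels by region and line shows how few of the regions were high in every line.

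**Figure D1:**
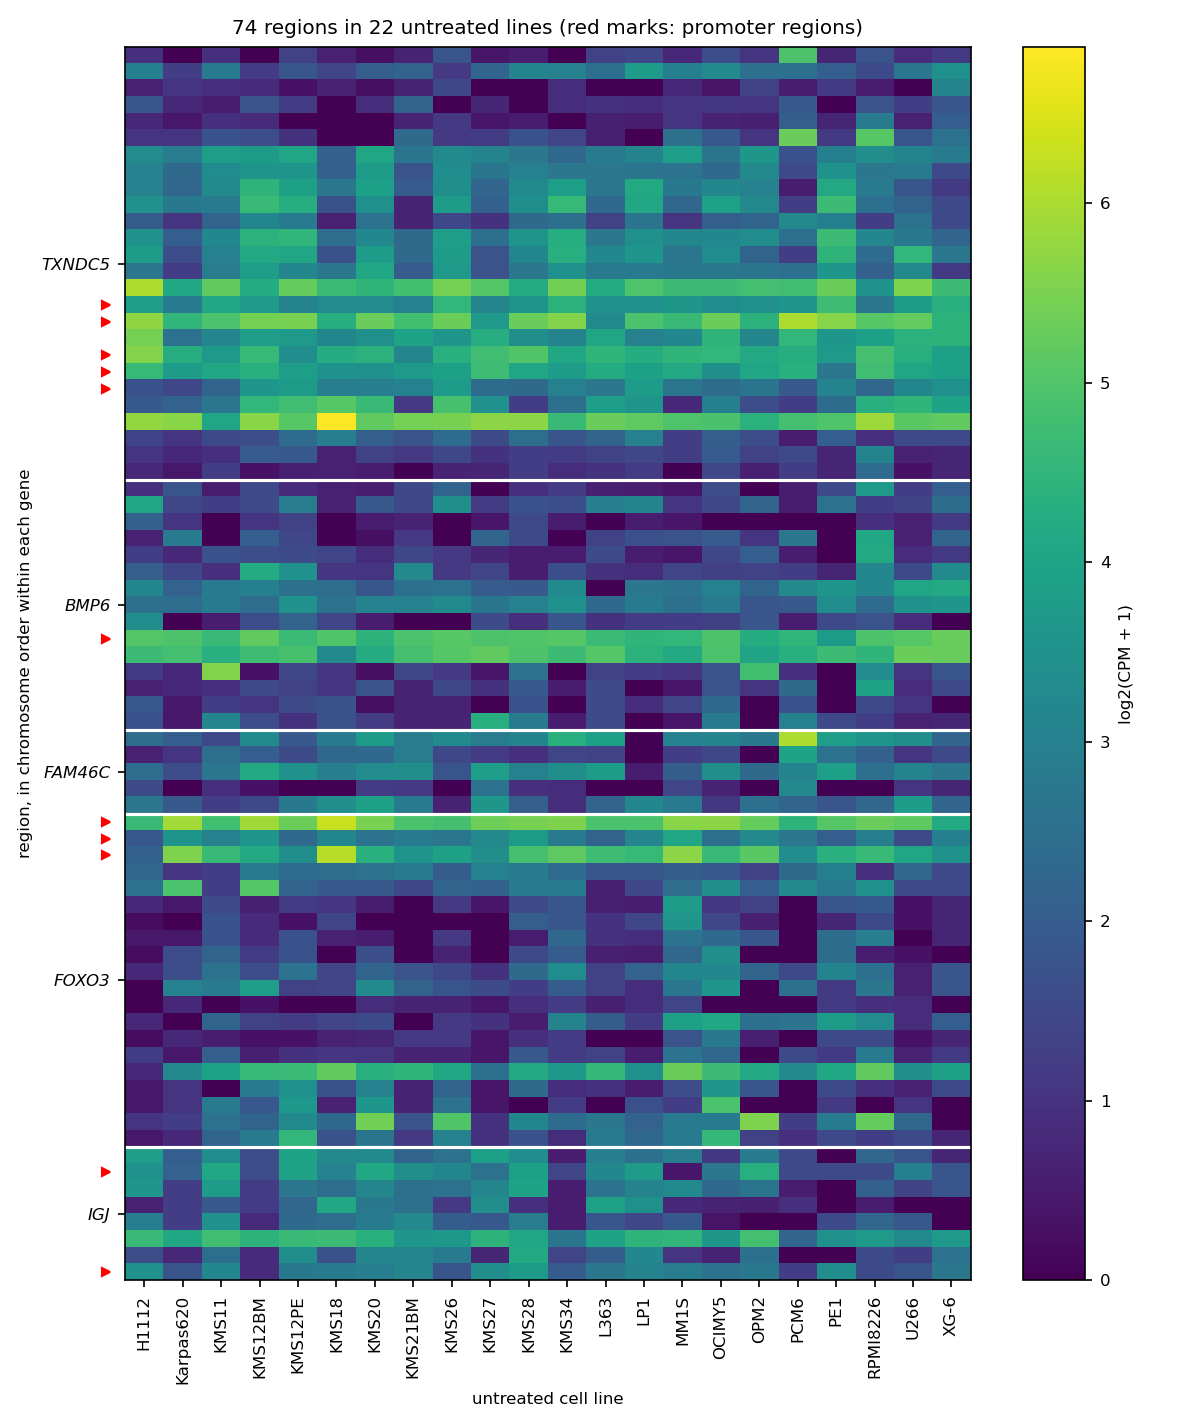
Accessibility of the 74 member regions (vertical axis, grouped by gene, with promoter regions marked in red) in the 22 untreated lines (horizontal axis), with color giving log2(CPM + 1). A few regions of TXNDC5, BMP6 and FOXO3 and 1 of IGJ are high across most lines, and none of FAM46C is. Single bright cells away from them mark regions high in 1 or a few lines, such as 2 FAM46C regions in PCM6.

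Summed over all regions of a gene, TXNDC5 had the highest sum of the 5 genes. Its sum ranged from 168.9 CPM in Karpas620 through a median of 275.3 CPM to 381.5 CPM in H1112, with a mean of 266.6 ± 56.5 CPM (SD, n = 22 lines). FOXO3 had 139.9 ± 57.7 CPM, from 46.4 CPM in H1112 through a median of 138.9 to 247.3 CPM in OCIMY5. BMP6 had 92.5 ± 23.4 CPM, from 58.7 CPM in KMS20 through a median of 91.8 to 149.2 CPM in RPMI8226. IGJ had 51.5 ± 26.1 CPM, from 10.2 CPM in PCM6 through a median of 53.1 to 90.4 CPM in KMS28. FAM46C had 26.8 ± 18.5 CPM, from 8.68 CPM in LP1 through a median of 21.9 to 98.6 CPM in PCM6. On this scale H1112 was the highest line for TXNDC5 and the lowest for FOXO3, and PCM6 the highest for FAM46C and the lowest for IGJ. The lines at the extremes of FAM46C and the lowest lines of FOXO3 and IGJ stayed the same with TMM scaling and after division by the local level described below. The other extremes changed under at least 1 of these, so that the highest line for TXNDC5 was PE1, for BMP6 KMS11, for FOXO3 RPMI8226 and for IGJ KMS18 relative to the local level.

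**Figure D2:**
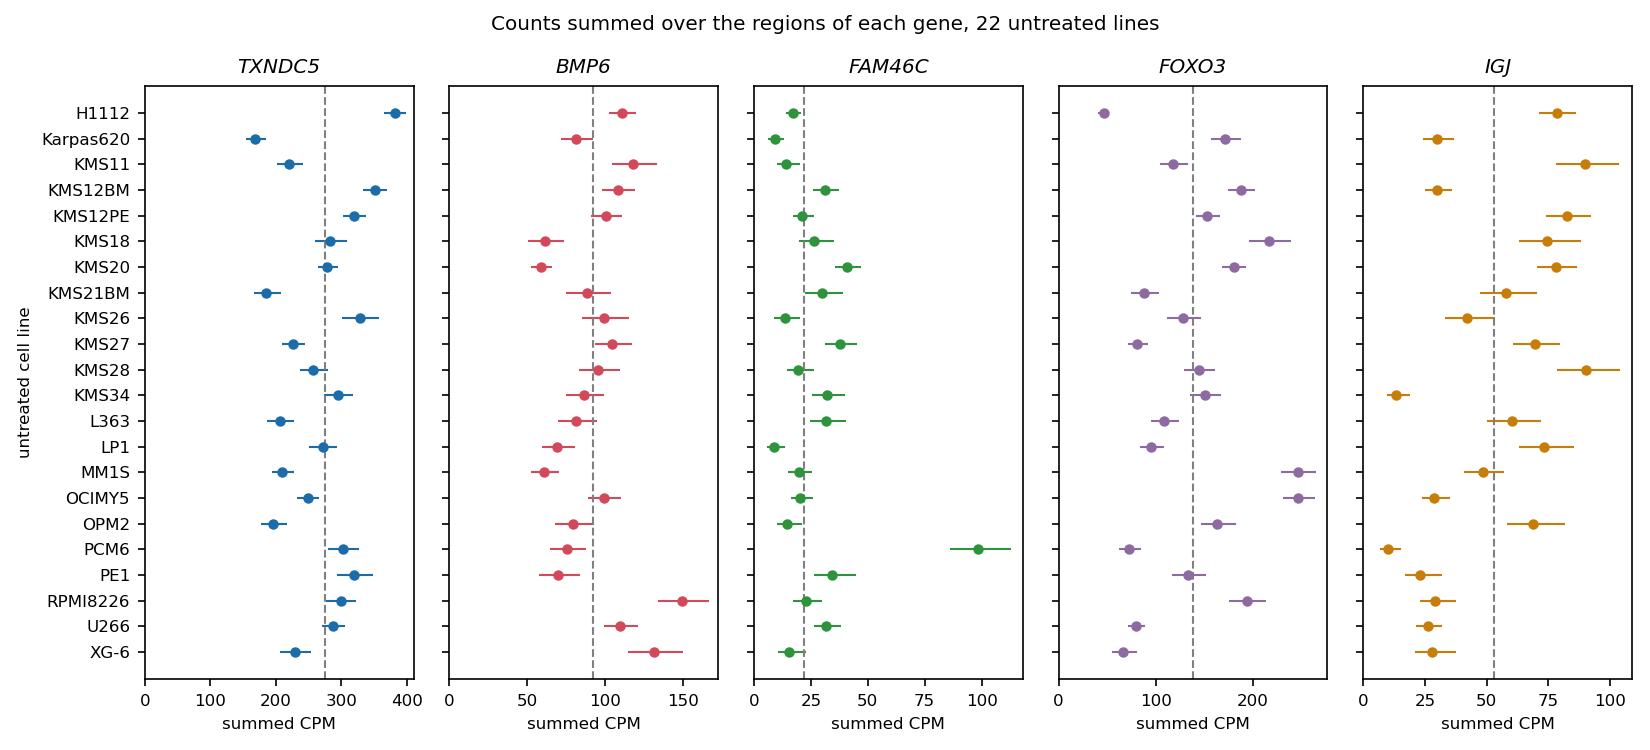
Summed CPM over all regions of each gene (horizontal axis) in each of the 22 untreated lines (vertical axis), with 95% Wilson intervals that cover counting error only and a dashed line at the median. PCM6 stands at 98.6 CPM for FAM46C, above the next line at 40.8 CPM, while TXNDC5 stays between 168.9 and 381.5 CPM.

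The spread between lines was set beside that of the 1000 genes nearest in mean level, as a description. On the log2(CPM + 1) scale the SD of TXNDC5 was 0.31, at percentile 2.8 of those genes (their median SD was 0.50). BMP6 had an SD of 0.36 (percentile 7.8, median 0.52) and FAM46C one of 0.75 (percentile 49.5, median 0.75). FOXO3 had an SD of 0.65 (percentile 78.2, median 0.51) and IGJ one of 0.88 (percentile 80.0, median 0.59). TXNDC5 and BMP6 were thus among the steadier of the genes set beside them, and FOXO3 and IGJ among the more variable. TXNDC5 stood at percentile 99.88 of 38784 genes by mean sum, so most genes set beside it were lower. The number of regions per gene was not matched. Which of TXNDC5 and BMP6 was the steadier depended on the measure, since by the single tallest region the SD was 0.58 for TXNDC5, 0.36 for BMP6 and 0.50 for FOXO3.

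The sums of FOXO3 and IGJ moved with the level of the surrounding DNA, taken from all other regions within 1 Mb. Across the 22 lines Pearson's r of the gene's sum with this local level was 0.81 for FOXO3 (Spearman's rho 0.83) and 0.81 for IGJ (rho 0.82). It was 0.46 for BMP6 (rho 0.30), 0.46 for FAM46C (rho 0.49) and 0.22 for TXNDC5 (rho 0.33). These are descriptions, and both quantities come from the same libraries. In H1112, the lowest line for FOXO3, the local level was 0.730 times that of the median line, and in PCM6, the lowest for IGJ, it was 0.684 times. In RPMI8226, the highest for BMP6, it was 1.86 times the median line. It was 1.21 times in H1112 around TXNDC5, 1.34 times in OCIMY5 around FOXO3 and 1.36 times in PCM6 around FAM46C. Divided by the local level, the SD between lines was 0.37 for TXNDC5, 0.34 for BMP6, 0.67 for FAM46C, 0.40 for FOXO3 and 0.58 for IGJ. The part of copy number in these differences was not tested.

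The lengths of the regions differ between genes, so levels of genes were compared per kb. Gene values are summed counts over summed length, whereas the medians over all regions set beside them take each region singly. At promoter regions the order was TXNDC5 (31.9 ± 7.30 CPM per kb, SD, n = 22 lines), FOXO3 (29.7 ± 12.8), BMP6 (26.8 ± 6.01) and IGJ (17.7 ± 10.1), beside a median of 11.7 CPM per kb over all 29459 promoter regions. Among neighbors in this order, TXNDC5 and FOXO3 differed by 0.17 in log2(CPM per kb + 1) (adjusted p = 0.349) and FOXO3 and BMP6 by 0.07 (adjusted p = 0.614), neither of which passed the test. By the single tallest promoter region TXNDC5 exceeded FOXO3 by 0.51 (adjusted p = 0.021). BMP6 exceeded IGJ by 0.77 (15 of 22 lines, adjusted p = 0.00590). TXNDC5 exceeded IGJ by 1.02 (19 of 22 lines, adjusted p = 0.00078) and BMP6 by 0.25 (16 of 22 lines, adjusted p = 0.0230), the latter not without PE1 and KMS12PE (0.18, adjusted p = 0.0704). The tests were 2-sided sign-flip permutation tests over the lines, adjusted over the 6 pairs of genes, of which 4 passed 0.05. FAM46C had no promoter member and was left out.

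At distal regions the order was TXNDC5 (22.4 ± 5.12 CPM per kb), IGJ (18.6 ± 9.56), FAM46C (14.5 ± 9.98), BMP6 (9.57 ± 3.02) and FOXO3 (9.31 ± 5.24), beside 5.68 CPM per kb as the median of all 125526 distal regions. No pair of neighbors in this order passed the test on all distal regions. TXNDC5 and IGJ differed by 0.44 in log2(CPM per kb + 1) (higher in 11 of 22 lines, adjusted p = 0.0551), IGJ and FAM46C by 0.31 (adjusted p = 0.334), FAM46C and BMP6 by 0.41 (adjusted p = 0.0545), and BMP6 and FOXO3 by 0.16 (adjusted p = 0.406). TXNDC5 exceeded BMP6 in 22 of 22 lines, by 1.17 (adjusted p = 1e-04, from the smallest p that the permutations can give, 1e-05). TXNDC5 exceeded FAM46C by 0.75 in 19 of 22 lines (adjusted p = 0.000567), and 6 of the 10 pairs passed in all. IGJ was the least accessible at its promoter regions, while its distal regions per kb stood above those of BMP6 (by 0.72, adjusted p = 0.00720) and FOXO3 (by 0.89, adjusted p = 0.00667). The distal order depended on which regions were taken. By the single tallest distal region, IGJ minus BMP6 was -0.067 (adjusted p = 0.75) and IGJ minus FOXO3 was 0.23 (adjusted p = 0.48), and TXNDC5 then exceeded IGJ by 0.59 (adjusted p = 0.0095). With promoters taken as within 2.5 kb, FAM46C exceeded BMP6 by 0.89 (adjusted p = 0.00072).

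**Figure D3:**
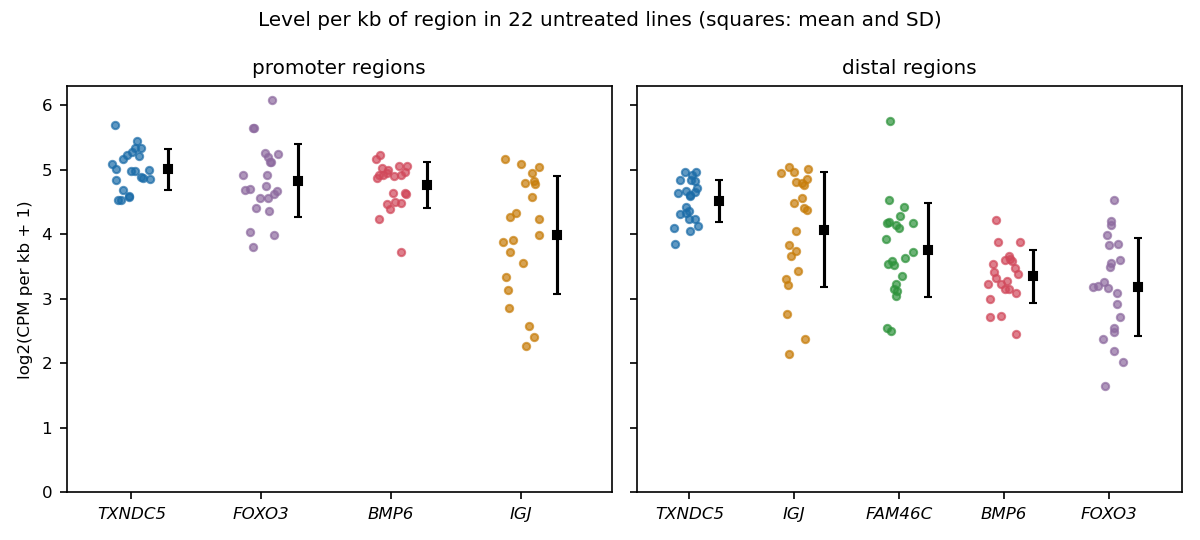
Levels of the 5 genes as log2(CPM per kb + 1) (vertical axis) at promoter regions and at distal regions, with a point for each of the 22 untreated lines and squares giving the mean ± SD. IGJ is lowest at promoters (mean 3.99) and second at distal regions (mean 4.07), and TXNDC5 is highest in both (means 5.01 and 4.51).

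TXNDC5 had its strongest region at chr6:7916848-7917882, at -5800 bp from the nearest annotated TXNDC5 start (negative distances are upstream), in an intron of the BLOC1S5-TXNDC5 readthrough gene. This region was called in 21 of 22 lines at 40.8 ± 20.2 CPM (SD), from 15.6 CPM in KMS11 through a median of 35.5 to 116.1 CPM in KMS18. The KMS18 value rested on 207 counts (95% Wilson interval 101.3 to 133.0 CPM, counting error only) and stood apart from the next line, RPMI8226, at 57.6 CPM. A region nearby, chr6:7914490-7914862, also peaked in KMS18 (33.1 CPM, median 8.45, lowest 0.687 in MM1S) and had the largest SD between lines of the better covered TXNDC5 regions, 1.40 in log2(CPM + 1). Both distal elements upstream of TXNDC5 were thus highest in the same line.

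The 5 promoter regions of TXNDC5 cover several annotated starts. The strongest, chr6:7900890-7901694, had 33.4 CPM on average, from 8.67 in L363 through 34.6 to 64.6 CPM in PCM6, and was called in 12 lines. The others had mean levels of 20.1 (chr6:7909711-7910464), 15.5 (chr6:7910985-7911607), 12.1 (chr6:7899235-7899523) and 6.62 CPM (chr6:7911623-7911902). H1112 was the highest line at chr6:7909711-7910464 (47.6 CPM, median 18.9), and also at the distal regions chr6:7897923-7898700 (63.6 CPM, median 26.4) and chr6:7907457-7907812 (42.4 CPM). The high TXNDC5 sum of H1112 was therefore spread over several regions of the gene. Promoter and distal sums of TXNDC5 moved together across lines (r = 0.70, rho = 0.71, n = 22, as a description).

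Several TXNDC5-assigned regions lay inside BMP6 and were high in 1 or 2 lines. At chr6:7848349-7848948, 40245 bp from the assigned start, PCM6 had 38.6 CPM (31.1 to 47.8) and RPMI8226 had 33.1 CPM, while the next line had 4.99 CPM and the median was 1.54 CPM. At chr6:7811428-7811883, 77310 bp away, PCM6 had 30.2 CPM (23.7 to 38.5) and the next line 2.45 CPM. Such regions can be assigned to TXNDC5 by distance without contact with its promoter having been measured.

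BMP6 had a pair of shared elements. Its single promoter region, chr6:7726065-7727091, had 27.5 ± 6.17 CPM, from 12.5 in PE1 through 29.9 to 37.4 CPM in XG-6, and was called in 18 lines. The intragenic region 1167 bp from the start, chr6:7728198-7729170, had 25.5 ± 7.65 CPM, from 8.41 in KMS18 through 25.4 to 39.1 CPM in U266, and was also called in 18 lines. The next strongest regions, chr6:7722064-7722475 and chr6:7723295-7723600 upstream of the start, both averaged 6.46 CPM. The former ranged from 0 CPM in L363 to 16.8 CPM in XG-6, and the latter from 2.61 to 11.2 CPM without a call in any untreated line. Promoter and distal sums of BMP6 moved together less than those of TXNDC5 (r = 0.33, rho = 0.41, n = 22), although the difference was not tested.

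Other BMP6 regions were high in single lines. At chr6:7758557-7759231, in the gene 31526 bp from the start, KMS11 had 46.9 CPM (38.6 to 56.9) and OPM2 had 26.6 CPM, while RPMI8226 followed at 8.97 CPM and the median was 1.24 CPM. RPMI8226 was the highest line at 4 further BMP6 regions with 14.6, 12.3, 16.5 and 16.999 CPM. This is the line with the highest BMP6 sum and a local level 1.86 times that of the median line. KMS27 had 19.2 CPM at the region starting at 7805705, where the next line had 7.81 CPM.

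FAM46C had the largest ratio of highest to lowest line among the 5 sums (11.3, beside 8.84 for IGJ), while its SD on the log2 scale was below that of IGJ and was 0.61 without PCM6. The region over its own start, chr1:118147944-118149225, is assigned to the neighboring annotation AL157902.3 and so is not a member, but it is given here because the gene's pattern turns on it. That region was called in 20 of 22 lines at 37.2 ± 19.2 CPM, with a median of 32.7 CPM and the highest value in U266 (75.2 CPM). LP1 had 0 counts there, which allows up to 1.67 CPM by the 95% Wilson interval, and the next lowest line, KMS11, had 11.03 CPM. All lines but LP1 thus had counts over the FAM46C start.

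In LP1 the missing signal extended over chr1:118079884-118161609, a stretch of 81.7 kb with 13 regions whose ends were set by LP1 having at most 1 count in each region. LP1 had 2 counts in the whole stretch (0.868 CPM), whereas the other 21 lines had 24.8 CPM (KMS11) to 144.1 CPM with a median of 80.7 CPM. The regions within 1 Mb around FAM46C were at 1.04 times the median line in LP1. The FAM46C region beyond the stretch, further downstream within the gene, chr1:118165063-118165586, had 8.25 CPM in LP1 (5.28 to 12.9), above the median line at 3.76 CPM and below KMS20 at 14.0 CPM. Accessible DNA was thus detected in the downstream part of FAM46C but not over its start and upstream part. Whether the DNA of the stretch is present in LP1 was not tested.

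**Figure D4:**
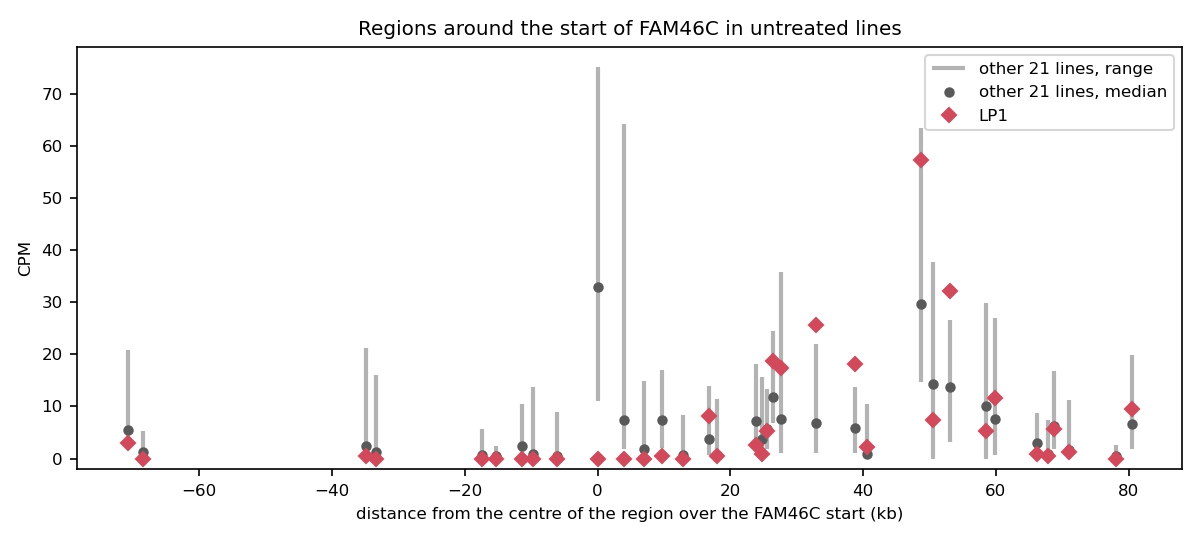
CPM of regions (vertical axis) within 100 kb of the center of the FAM46C start region (horizontal axis, distance in kb), for LP1 and for the median and range of the other 21 lines. LP1 lies at or near 0 across 81.7 kb that include the start region and rises again beyond it.

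PCM6 differed from the other lines in the opposite direction. At chr1:118152370-118152817, 3813 bp from the FAM46C start, PCM6 had 64.2 CPM (54.3 to 75.8, 138 counts), while KMS34 followed at 19.04 CPM, the median was 7.29 CPM and LP1 had 0 CPM. PCM6 was also the highest line at the regions 6862 bp (14.9 CPM, next line 6.55 CPM) and 12896 bp (8.37 CPM) from the start. Its local level around FAM46C was 1.36 times that of the median line, beside a FAM46C sum 4.50 times the median. The remaining member region, chr1:118158041-118158573, had 7.55 CPM on average, from 0.434 in LP1 through 7.17 to 17.1 CPM in KMS12BM.

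FOXO3 had a shared promoter and a shared intronic element. The promoter region chr6:108879309-108880709 had 38.8 ± 14.3 CPM, from 17.5 in XG-6 through 37.6 to 78.0 CPM in KMS18, and was called in 19 lines. The second promoter region, chr6:108881632-108882348, had 23.7 CPM on average, from 3.41 CPM in H1112 through 21.5 to 69.5 CPM in KMS18. The third, the narrow chr6:108880974-108881193, had 6.88 CPM, from 1.91 through 6.33 to 15.8 CPM in MM1S. KMS18 was thus the highest line at both wider promoter regions, as it was at the upstream element of TXNDC5. Around FOXO3 its local level was 1.83 times that of the median line, the highest of the 22 lines. The local level was 1.18 times in KMS18 around TXNDC5 and 1.42 times in MM1S around FOXO3.

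The most widely called FOXO3 region was distal. At chr6:108994300-108995035, 16750 bp from the nearest annotated FOXO3 start, accessibility was called in 21 lines at 17.95 ± 10.02 CPM, with a median of 16.6 CPM and the highest value in MM1S (39.5 CPM). H1112 was again the lowest line, with 4 counts (0.719 CPM). H1112 kept 24.1 CPM at the promoter region chr6:108879309-108880709, so its low FOXO3 sum was uneven over the gene, and the local level in that line was 0.730 times the median.

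Several FOXO3 regions were high in small groups of lines. OPM2 (45.4 CPM), KMS20 (41.7), RPMI8226 (36.8) and KMS26 (31.2) were high at chr6:109010260-109011448, where the next line had 8.65 CPM and the median was 4.69 CPM. That region lay 32710 bp from the nearest annotated FOXO3 start, which is not the start at the promoter regions. KMS12BM (32.1 CPM) and Karpas620 (29.5) were high at chr6:108886392-108886865, where the next line had 9.92 CPM and KMS12PE had 3.56 CPM. OCIMY5 was high at chr6:109006015-109006551 (29.2 CPM), with KMS12PE next at 11.7 CPM. Both were also high at the region starting at 109012090 (23.0 and 22.4 CPM). MM1S alone was high at the regions starting at 108889124 (12.7 CPM, next line 2.83 CPM) and at 108895074 (10.99 CPM).

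IGJ had its strongest region inside the gene. At chr4:71543906-71544533, 3000 bp from the nearest annotated start, it had 16.5 ± 6.96 CPM, with calls in 15 lines. The values ran from 3.72 in PCM6 through 15.6 to 27.1 CPM in OPM2. The 2 promoter regions lay at different annotated starts and were weaker. The region chr4:71532973-71533344 averaged 7.68 CPM, from 0.343 in MM1S through 7.06 to 19.3 CPM in OPM2, and chr4:71547419-71547804 averaged 5.76 CPM, from 0.789 in KMS12BM through 5.80 to 12.5 CPM in KMS28. The distal region chr4:71527052-71527454 averaged 5.70 CPM, from 0 in PE1 through 4.83 to 14.8 CPM in KMS12PE, and the region starting at 71533826 averaged 5.24 CPM. All 8 IGJ regions overlap the annotation of ENAM, a tooth enamel gene, so the gene assignment is not unique. KMS18 (16.3 CPM) and L363 (14.3 CPM) were high at the region starting at 71541850.

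The promoter and distal sums of IGJ moved together across the lines (r = 0.74, rho = 0.78, n = 22). KMS12BM had an IGJ sum of 29.98 CPM (24.96 to 36.0) and KMS12PE one of 82.7 CPM (74.2 to 92.2), with local levels of 0.786 and 1.42 times the median line. These lines from the same patient had TXNDC5 sums of 350.8 and 319.3 CPM.

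The sums of the 5 genes were weakly related to each other. Pearson's r between the sums of 2 member genes lay between -0.42 (FAM46C and IGJ) and 0.27 (TXNDC5 and FAM46C) over the 22 lines, and the former was -0.09 without LP1 and PCM6. The genes whose pattern was most like each member were taken from 21465 genes by Pearson's r. For TXNDC5 these were AC012065.7 (r = 0.67), RP11-138A9.2 (0.66) and LEKR1 (0.66) on other chromosomes and HIST1H2BO (0.77, rho = 0.78) on its own. For BMP6 they were DUSP3 (0.67), CLSTN1 (0.66), RP4-680D5.2 (0.66) and, on chromosome 6, GMDS (0.65). For FAM46C they were RFFL (0.73), CCR2 (0.72), NFKBIZ (0.72) and, on chromosome 1, CD58 (0.76). For FOXO3 they included PITX1 (0.69), RN7SL688P (0.68) and, on chromosome 6, PDSS2 (0.80). For IGJ they were AC007250.4 (0.83), UFC1 (0.81), FMO5 (0.81) and, on chromosome 4, RUFY3 (0.83). Without the 2 lines farthest from the member's median, these r values ran from 0.47 (RP11-138A9.2) to 0.82 (RUFY3). GMDS was then at 0.48 and RN7SL688P at 0.51, while RFFL (0.74) and RP4-680D5.2 (0.67) rose slightly. The points are lines that share depth and local level, so these values are descriptions.

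Sequence features were counted in the central 300 bases of each region, on both strands. TGANTCA was present in 16 of 74 members (21.6%), beside 15.2% of all regions. All 16 were distal, 25.4% of the distal members beside 16.7% of all distal regions. CCAAT was present in 16 members (21.6%, beside 31.0%), GGGAAA in 20 (27.0%, beside 23.5%) and the interferon-stimulated response element in 6 (8.11%, beside 9.60%). CACGTG was present in 4 members (5.41%, beside 5.14%), TGACGT in 1 (1.35%, beside 3.99%) and GTAAACA, the forkhead core bound by FOXO factors, in 1 (1.35%, beside 6.61%). The member promoters differed in composition, also within a gene. The window over the IGJ start at chr4:71547419-71547804 had 28.7% G+C and 0 CpG, and that over the other IGJ promoter region had 51.0% G+C and 6 CpG. The BMP6 start window had 66.0% G+C and 34 CpG. The windows over the FOXO3 start regions had 73.7% and 77.3% G+C, and the most widely called FOXO3 promoter region, chr6:108879309-108880709, had 44.3% G+C and 17 CpG. In RefSeq promoters of GRCh38.p14 (250 bases before to 50 after the start), that of IGJ, listed as JCHAIN, had 34.3% G+C, 0 CpG and 1 TGANTCA, a match that 7.71% of 35116 promoters held.

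The lenalidomide comparison asked whether treatment changed accessibility within the same line, with the line as a block in edgeR's quasi-likelihood test. Of all 37732 regions that passed the low-count filter, 5.4% were called at an adjusted p below 0.05, with 4.17% of the tested regions raised and 1.22% lowered. Of the 74 members, 31 passed the filter and 1, an IGJ region, was called as lowered. No member was called as raised. At an unadjusted p below 0.05 there were 7 members (22.6%, beside 17.3% of all regions). DESeq2 called 0 members (beside 2.22% of all regions), with 5 unadjusted (16.1%, beside 10.3%). The fitted changes of the 31 members were positive for 11 and negative for 20, with a median log2 change of -0.11, beside -0.01 for all regions. Positive changes were fitted for 18231 of all 37732 regions. Among the 14 TXNDC5 regions tested, 13 had negative changes (median -0.35), whereas the 7 FOXO3 regions were divided into 4 positive and 3 negative (median 0.16). The 3 BMP6 and the 2 FAM46C regions had positive changes, and 4 of the 5 IGJ regions had negative ones. Regions share the same libraries, so these are not counts of independent observations.

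The called region was chr4:71527052-71527454, 4752 bp from the nearest annotated IGJ start. It went from 3.12 to 1.17 CPM in Karpas620, 13.8 to 7.87 in KMS27, 6.63 to 4.15 in L363, 6.52 to 1.81 in MM1S, 6.26 to 4.07 in OPM2 and 3.78 to 2.35 CPM in RPMI8226. It fell in 6 of 6 pairs, although treated and untreated values overlapped between lines. The log2 change was -0.92 (SE 0.27, adjusted p = 0.033). At these low levels the call was lost without Karpas620, L363 or OPM2 (adjusted p = 0.079, 0.065 and 0.062), with DESeq2 (0.21) and without the low-count filter (0.11). Without KMS27 or without MM1S the region did not pass the low-count filter and was not tested.

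The member with the next smallest p was upstream of BMP6, at chr6:7723295-7723600. It went from 4.51 to 6.26 CPM in Karpas620, 5.40 to 6.50 in KMS27, 4.08 to 9.68 in L363, 4.81 to 5.81 in MM1S, 2.61 to 10.9 in OPM2 and 4.25 to 8.95 CPM in RPMI8226. All 6 pairs were higher after treatment, with a log2 change of 0.83 (SE 0.26) that did not pass the correction (adjusted p = 0.053).

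At the main upstream element of TXNDC5, chr6:7916848-7917882, values went from 48.9 to 25.8 CPM in Karpas620, 49.9 to 53.7 in KMS27, 38.8 to 19.4 in L363, 30.6 to 24.3 in MM1S, 19.8 to 7.69 in OPM2 and 57.6 to 56.7 CPM in RPMI8226. They were lower in 5 of 6 pairs, and KMS27 was the exception. The log2 change of -0.44 (SE 0.14) had an adjusted p of 0.070, which became 0.022 without KMS27 and 0.025 without RPMI8226. KMS27 was the pair that rose and RPMI8226 the pair that changed least, so leaving either out favored a smaller p. No member was called without Karpas620, L363, MM1S or OPM2, nor with DESeq2. A second TXNDC5 region, chr6:7897923-7898700, was lower in 5 of 6 pairs, with a log2 change of -0.48 (SE 0.18, adjusted p = 0.13). At the intronic FOXO3 element, chr6:108994300-108995035, values were higher in 5 of 6 pairs, with the widest step in KMS27, from 4.72 to 15.7 CPM. Its log2 change was 0.47 (SE 0.17, adjusted p = 0.11).

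Summed over all regions of a gene, none of the 5 genes passed the correction. Of 27111 gene sums tested, 2.13% were called. TXNDC5 went from 168.9 to 106.0 CPM in Karpas620, 226.7 to 186.1 in KMS27, 206.0 to 161.4 in L363, 210.1 to 153.5 in MM1S, 196.2 to 163.2 in OPM2 and 298.9 to 335.5 CPM in RPMI8226. It was lower in 5 of 6 pairs, with a log2 change of -0.29 (SE 0.081, adjusted p = 0.058). Without RPMI8226, the only pair that rose, the log2 change was -0.40 (SE 0.075, adjusted p = 0.0024, with 2.97% of gene sums called). Without any 1 other line the adjusted p was 0.13 (OPM2) to 0.28 (Karpas620), and with DESeq2 0.22. With distal regions alone the log2 change was -0.37 (SE 0.11, adjusted p = 0.035, with 4.02% of distal sums called). With promoter regions alone it was -0.13 (adjusted p = 0.60). The difference between promoter and distal regions, and that between RPMI8226 and the other lines, were not tested.

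The other gene sums did not pass the test. The log2 change was 0.02 for BMP6 (SE 0.085, adjusted p = 0.96), 0.05 for FAM46C (SE 0.16, adjusted p = 0.93), 0.09 for FOXO3 (SE 0.083, adjusted p = 0.69) and -0.11 for IGJ (SE 0.11, adjusted p = 0.74). At the FAM46C start region it was -0.11 (adjusted p = 0.69). The plot of pairs shows lower TXNDC5 values in 5 lines beside mixed directions for the other genes.

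**Figure D5:**
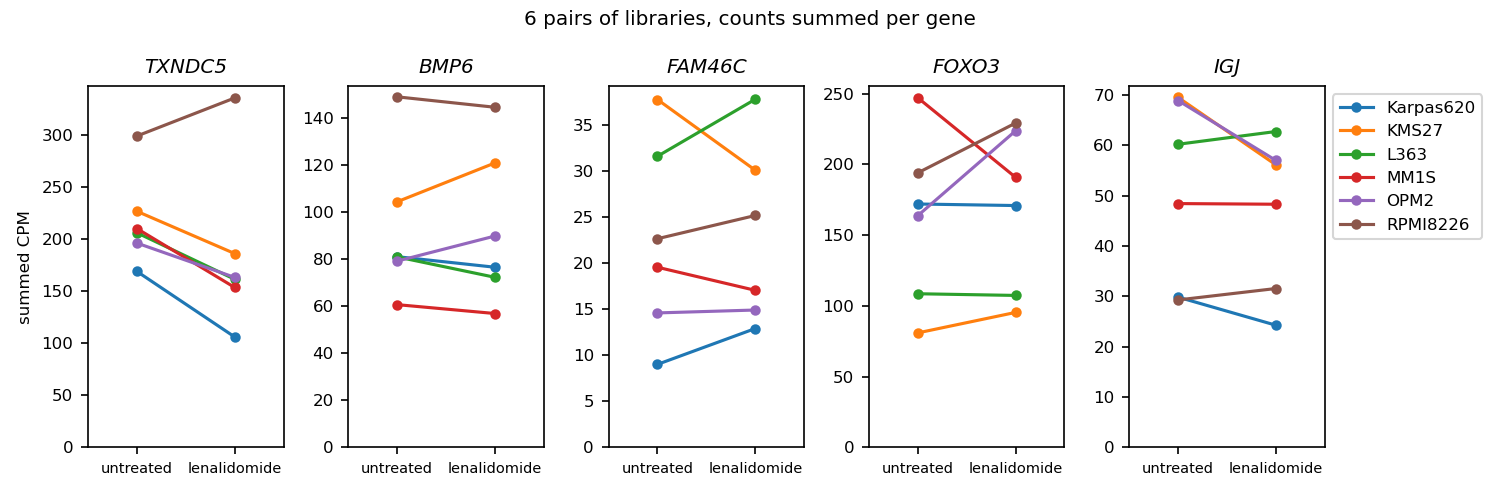
Summed CPM of each gene (vertical axis) in the untreated and the lenalidomide-treated library of each of the 6 lines (points joined by a line per cell line). TXNDC5 is lower after treatment in all lines but RPMI8226, where it goes from 298.9 to 335.5 CPM.

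Genes that act with the partner genes were read from the same fit of gene sums, where 2.13% of all sums were called. None of the 14 protein disulfide isomerase genes tested passed (median log2 change 0.01), nor did any of the 22 genes of the bone morphogenetic protein pathway (-0.01). The 2 FAM46 family genes tested (-0.12) and the 7 genes of polymeric immunoglobulin and its secretion (-0.11) were not called either. Of the 14 FOXO family and target genes, 1 was called. That gene was TXNIP, which encodes an inhibitor of thioredoxin and is a known FOXO target, and its sum rose by 0.39 on the log2 scale (SE 0.074, adjusted p = 0.0038). The median of that list was -0.04, beside -0.01 for all genes.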

How the data were processed

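ATAC-seq was measured in 28 libraries, 22 untreated and 6 treated with lenalidomide. Per the labels, reads were aligned to GRCh37 with Bowtie2 2.2.6, files were handled with SAMtools 1.7, and peaks were called with MACS2 2.1.0.20151222. Whether duplicates were removed, whether reads or fragments were counted and whether Tn5 offsets were applied is not given in the sources used here. The authors deposited a table of counts per region, merged over libraries and annotated to the nearest start, the same table as RPM values, and a table of peaks per library and region (0 to 4), whose meaning was read from its values. A region was taken as called with 1 or more. CPM computed from the deposited counts equalled the RPM values, which were not otherwise used.

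Counts were tested with edgeR 4.0.16 (TMM factors, filterByExpr, quasi-likelihood test, Benjamini-Hochberg adjustment over all regions or gene sums tested) in R 4.3.3, with the cell line as a block. Pairing comes from the cell line names: each treated library correlated best with its own line (0.909 to 0.949, next at most 0.743). DESeq2 1.42.0 was an alternative. Genes were compared in Python 3.11.15 with SciPy 1.17.1 by sign-flip permutation tests over lines on log2(CPM per kb + 1). Wilson 95% intervals cover counting error only. The scripts were tested on simulated data with known changes.

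The members and lists were chosen with earlier results of these data known. Named regions were all promoter regions, the 3 distal regions with the highest mean per gene, the 5 smallest p in the lenalidomide fit, and the most variable region of at least 5 CPM. The genes most alike were the 3 highest correlations on other chromosomes and 1 on the same chromosome, among genes of at least 10 CPM. Regions high in 1 or a few lines and the FAM46C start region were named, and the fits without PE1 and KMS12PE added, after the values were seen. Among the named genes, 1 of those most like FOXO3 is not reported here.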

Additional observations from a re-analysis of the deposited data

Results flagged for a closer look

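Of 41 sets of 6 pair differences examined for a value standing far from the other 5, 1 was found, where chance gives about 1 in 20 (2.05 expected). At the narrow FOXO3 promoter region chr6:108880974-108881193, the log2 change with lenalidomide was -0.69 in MM1S, which fell from 15.8 to 9.44 CPM. The other 5 lines had log2 changes of 0.23 to 0.52. MM1S was also the highest untreated line at this region.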

How the results depend on the processing

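Member regions with a lenalidomide call numbered 1, and 0 with DESeq2, with 10 or more counts required in every library, or with no replicate block, and 0 to 2 when a line was left out. Without the block for cell line, 440 regions had an unadjusted p below 0.05 and 0 of all regions were called, beside 2036 with it. DESeq2 called 839 regions, the fit without a low-count filter 4092, the fit that required 10 or more counts per library 587, and the fits without 1 line 1067 (without MM1S) to 2503 (without RPMI8226). Without the filter the member called was the intronic FOXO3 region (0.54, adjusted p = 0.038) and no longer the IGJ region. Member genes called numbered 0, and 1 (TXNDC5) with distal regions only and 0 to 1 when a line was left out. Changes near 0 turned sign for BMP6 (-0.014 with distal regions only, and -0.026 without KMS27 to 0.055 without L363), FAM46C (-0.045 with the start region counted) and FOXO3 (-0.0089 with promoter regions only). In the distal order, by the single tallest region, FAM46C minus BMP6 became -0.69, FAM46C minus FOXO3 -0.40 and IGJ minus BMP6 -0.067, and BMP6 minus FOXO3 became -0.31 with promoters within 2.5 kb. Leaving out PE1 and KMS12PE, chosen after seeing the data, ended the promoter call of TXNDC5 over BMP6 and no other call of a gene pair. The SD between lines was 0.58 for TXNDC5 and 1.15 for FAM46C by the single tallest region, and 0.40 for FOXO3 and 0.58 for IGJ after division by the local level. Counted by level, the median untreated line had 44 members at 2 CPM or more and 30.5 at 5 CPM or more, beside 13 called. Of 287 recomputed values, 241 were counted as unchanged. For tested changes and differences this meant the same direction and side of the threshold. Counts and SDs, which have no direction, had to stay close to the main value instead. The causes were not tested. At the untreated median depth 1 count is worth 0.447 CPM, so differences among regions of a few CPM rest on few counts.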
